A study of Homo sapiens with 18 samples.

Results

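The comparison described here is siANKRA2 over siControl in U2OS cells that were treated with Nutlin-3a. U2OS is a human osteosarcoma line with wild-type p53. Its members were all genes of the deposited table for this comparison, 26702 of the 26702 genes in the 6 deposited tables. It rests on 6 of 18 samples, 3 transfected with siControl and 3 with siANKRA2, all in 10 µM Nutlin-3a for 24 h. The other samples were siControl and siANKRA2 cells in the solvent DMSO for 24 h, and siRFXANK cells in either treatment, 3 per group. Polyadenylated RNA was sequenced. The labels give 1 siRNA name per target and 1 cell line, so an effect of lower ANKRA2 and any other effect of this siRNA cannot be told apart, and nothing in the labels says that the 3 samples of a group came from separate cultures, so p-values may measure technical spread.

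ANKRA2 and RFXANK are related ankyrin repeat proteins. RFXANK joins RFX5 and RFXAP in the complex that drives MHC class II genes, and ANKRA2 binds class IIa histone deacetylases and RFX7 through the same kind of repeat. RFX7 is a transcription factor that p53 switches on and that raises genes which restrain growth, among them the mTOR inhibitor DDIT4. Nutlin-3a frees p53 from its inhibitor MDM2, so cells in Nutlin-3a arrest with high p53 target gene levels.

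The deposited table holds no value per library. It gives each gene's log2 fold change with its standard error (SE), a Wald score that is their quotient, and the DESeq2 adjusted p-value, and a gene is called here when the latter is under 0.05. Group means in normalized counts were recovered from the fold changes and standard errors of all 6 tables and are approximate. The authors' mean was, at the median gene, 0.988 times the mean of its recovered group means (1st percentile 0.615, 99th percentile 1.49). The depth of the libraries is unknown. Named genes average 100 normalized counts or more in the authors' mean unless stated.

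Of the 26702 genes, 13366 were called (50.1%), 6559 of them higher (24.6%) and 6807 lower (25.5%) after siANKRA2. Of the called genes 4992 (37.3%) had an absolute log2 fold change under 0.5. The median over all genes was -0.01 on the log2 scale. Among the 13103 genes averaging 100 or more, 78.1% were called, 38.5% higher and 39.6% lower, with quartiles of -0.44 and 0.37. Counts in a gene list are therefore read against a background in which a call is common.

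The targeted gene went from 376 normalized counts in siControl to 63.0 in siANKRA2 cells, a log2 fold change of -2.58 (SE 0.12). Its direction fixed how the table was read and is no result. ANKRA2 lies on the minus strand of chromosome 5 and overlaps UTP15, a ribosome biogenesis factor, on the opposite strand. UTP15 went from 809 to 1053 normalized counts (log2 fold change 0.38, SE 0.08). Whether counting used strand is not given in the sources used here. The authors' mean of ANKRA2, 31568 normalized counts, far exceeds its highest recovered group mean of 516.

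**Figure D1:**
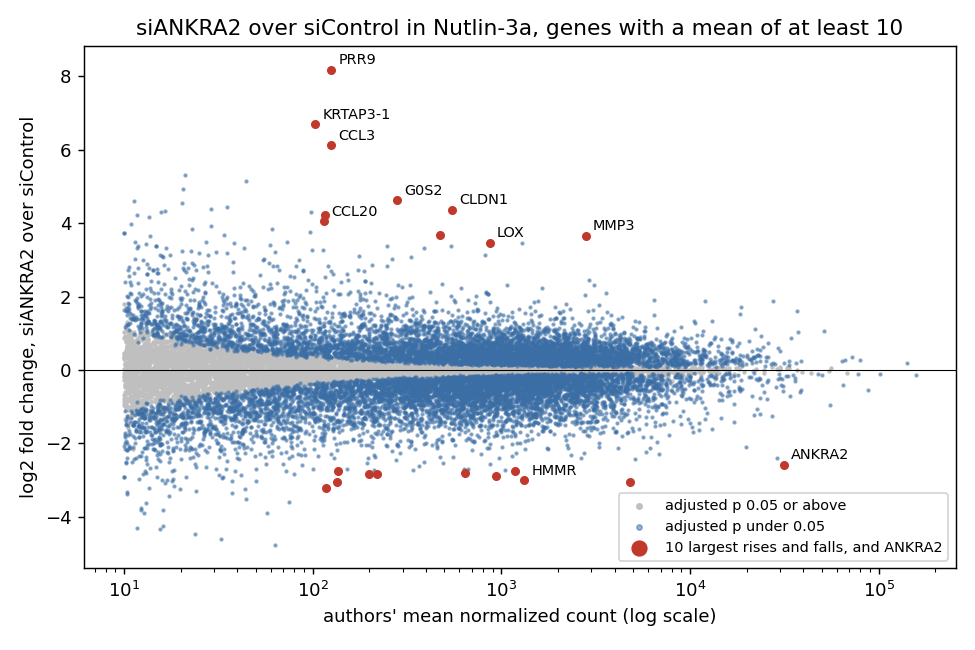
The siANKRA2-to-siControl log2 fold change under Nutlin-3a (vertical axis) against the authors' mean normalized count (horizontal log axis) for genes averaging 10 or more. Each point is a gene, blue where the adjusted p-value is under 0.05, and red points mark the 10 largest rises and falls and ANKRA2, whose authors' mean of 31568 lies far to the right of its recovered means, and KRTAP3-1 is drawn at a fitted value that rests on a siControl mean under the floor of 3 normalized counts.

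Markers of the U2OS lineage were present in both groups. All 9 had a row, and their recovered means summed to 234138 normalized counts in siControl and 234014 in siANKRA2 cells. The sum was 41910 and 53940 for the 7 of 9 epithelial markers with a row, most of it from the keratins KRT8 and KRT18. The 3 of 7 blood markers with a row summed to 4.47 and 15.6, and in siControl cells all 3 lay under 3 normalized counts, the floor used here (0.671 to 2.09). Vimentin, VIM, fell by 0.94 on the log2 scale (SE 0.03) from 46239 to 24062, while COL1A1 rose by 0.25 (SE 0.04) and the cadherin CDH2 by 0.63 (SE 0.03). Their part in the results below was not tested. In bulk samples, a smaller share of cells with a transcript and less transcript per cell cannot be told apart.

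Of the 10 RFX family members and ankyrin partners with a row, 7 fell and 1 rose. ANKRA2 is among the 7 and enters the list medians below, although its direction is no result. Among all genes averaging 100 or more, as 8 of the 10 do, 39.6% were called lower and 38.5% higher. RFX5, the DNA-binding subunit of the MHC class II complex, changed most after ANKRA2. It went from 3955 to 1175 normalized counts (log2 fold change -1.75, SE 0.05). RFX7 went from 1810 to 1049 (-0.79, SE 0.10), RFX2 from 312 to 199.9 (-0.64, SE 0.10), RFX3 from 354 to 249 (-0.51, SE 0.11) and RFX1 from 535 to 387 (-0.47, SE 0.07). RFXANK fell by 0.44 on the log2 scale (SE 0.07). The remaining subunit RFXAP, at 79.1 and 124 normalized counts, rose by 0.65 (SE 0.15). RFX6 and RFX8 were not called and had recovered means of at most 6.0. The median over the list was -0.49 in Nutlin-3a and -0.53 in DMSO. The difference between the 2 treatments passed its test for 3 of the 10, beside 19.8% of all genes. Adjusted over only the 13103 genes averaging 100 or more, it passed for 5264 of them.

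All but 1 of the 12 genes described as RFX7 targets were lower after siANKRA2. That is 11 of 12 against 25.5% of all genes, with a list median of -1.08. All 12 average 100 or more, and 39.6% of genes at such levels were called lower. The largest change was in ABAT, which breaks down the transmitter GABA. It stood at 2749 normalized counts in siControl and 626 in siANKRA2 cells, a log2 fold change of -2.13 (SE 0.06). The atypical cyclin CCNG2 fell by 1.69 (SE 0.07), the MAX partner MXD4 by 1.27 (SE 0.06), the nuclear receptor coregulator PNRC1 by 1.22 (SE 0.07) and the translation inhibitor PDCD4 by 1.15 (SE 0.06). PIK3IP1, an inhibitor of PI3 kinase, went from 1462 to 682 normalized counts (-1.10, SE 0.06). DDIT4, the stress-induced inhibitor of mTORC1, went from 3984 to 1920 (-1.05, SE 0.05). The antiproliferative TOB1 fell by 0.85 (SE 0.05), the amino acid transporter SLC43A2 by 0.41 (SE 0.07), KLHL24 by 0.39 (SE 0.06) and the AP-1 subunit JUNB by 0.15 (SE 0.06). TSPYL2 stood at 1540 and 1581 normalized counts and was not called (0.04, SE 0.05). MXD4, PNRC1, SLC43A2, KLHL24 and TSPYL2 overlap no annotated gene on the opposite strand, whereas the other 7 do, and DDIT4, PIK3IP1, TOB1 and PDCD4 each overlap an antisense RNA. The list comes from the literature on RFX7 and was used with earlier results of these data known.

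In DMSO the same genes did not move as a group. There, 6 of the 12 rose and 6 fell, beside 48.8% of all genes called (24.3% higher, 24.5% lower), and the list median was 0.04. The difference between the effect of siANKRA2 in Nutlin-3a and in DMSO was tested per gene by a normal test with Benjamini-Hochberg adjustment over all 26702 genes, on libraries that the 2 comparisons do not share. It passed for 5276 genes (19.8%), 2522 above 0 (9.44%) and 2754 below 0 (10.3%). Adjusted over only the 13103 genes averaging 100 or more, it passed for 5264, 2542 above 0 and 2722 below 0, a larger share. Of the 12 RFX7 targets, 11 were below 0 and none above. PIK3IP1 was 2.20 lower in Nutlin-3a than in DMSO on the log2 scale (SE 0.10), and siANKRA2 raised it in DMSO (1.10) and lowered it in Nutlin-3a. MXD4 differed by -1.50, ABAT by -1.62, JUNB by -1.56 and TSPYL2 by -1.21. CCNG2 fell to a similar value in DMSO (-1.53), and its difference of -0.15 (SE 0.11) did not pass. After siRFXANK in Nutlin-3a, which is set against the same siControl libraries, 8 of the 12 were lower and 2 higher, beside 39.4% of all genes called (19.8% higher, 19.6% lower), with a list median of -0.52. The values there were -1.12 for ABAT, -0.91 for MXD4, -0.83 for PIK3IP1 and -0.77 for DDIT4. The siRFXANK samples carry other source labels than the siControl samples and have no siControl samples of their own, so siRFXANK and a separate preparation cannot be told apart.

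**Figure D2:**
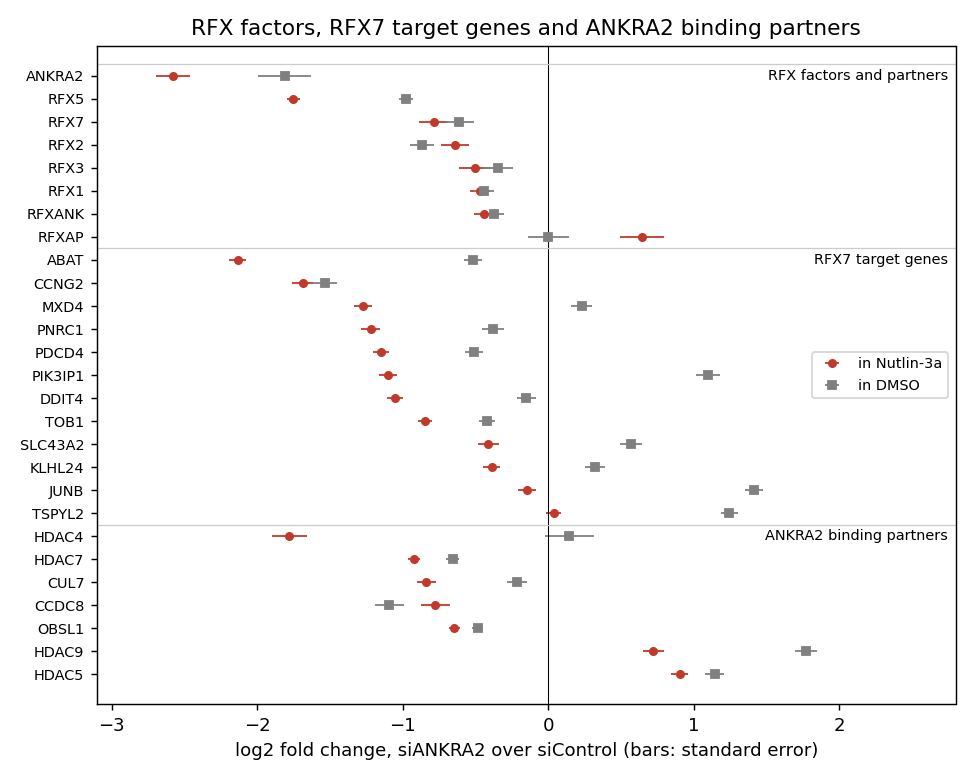
The siANKRA2-to-siControl log2 fold change (horizontal axis) in Nutlin-3a (red circles) and in DMSO (grey squares) for RFX factors, RFX7 target genes and ANKRA2 binding partners averaging 100 or more. Bars are the deposited standard errors, and 10 of the 12 RFX7 targets sit at -0.39 or lower in Nutlin-3a.

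Among the 8 proteins known to bind ANKRA2, 5 fell and 2 rose at the transcript level. Of all genes averaging 100 or more, as 7 of these do, 39.6% were called lower and 38.5% higher. The class IIa histone deacetylase HDAC4 went from 407 to 119 normalized counts (-1.78, SE 0.12), while in DMSO it stood at 0.14 (SE 0.17). The difference of -1.92 passed its test. HDAC7 fell by 0.92 (SE 0.04). HDAC5 rose by 0.90 (SE 0.06) and HDAC9 by 0.72 (SE 0.07), so the 4 deacetylases of this class moved in both directions. The 3M complex subunits CUL7, CCDC8 and OBSL1 fell by 0.84, 0.78 and 0.64. The endocytic receptor LRP2, at 6.25 and 9.55 normalized counts, was not called.

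Of the MHC genes, classical targets of the RFXANK complex, those of class I showed no common direction, and the few class II genes called were higher. Of 16 MHC class I presentation genes, 6 rose and 7 fell, with a median of -0.17. Among the 14 that averaged 100 or more 6 rose and 6 fell, with a median of -0.03, and these shares lie near the 38.5% and 39.6% of all genes at such levels. HLA-E rose by 0.75 (SE 0.04), while the class I activator NLRC5 fell by 0.64 (SE 0.10) and the proteasome subunit PSMB10 by 0.80 (SE 0.17). PSMB10 has 41.5% of its longest transcript in common with other genes and is uncertain. Of 12 MHC class II genes, 4 rose and none fell, with a median of 0.50, beside 24.6% of all genes called higher and 25.5% lower. Most had very low levels, and only HLA-DQB1 reached a mean of 100, at 311 and 403 normalized counts (0.38, SE 0.10).

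p53 target genes of metabolism, cell death and DNA repair stood mostly below the level of siControl cells in Nutlin-3a, and those of arrest did not. CDKN1A, GDF15 and GADD45A stood above that level. Beside the counts below, 25.5% of all genes were called lower and 24.6% higher. Among genes averaging 100 or more the shares were 39.6% and 38.5%. MDM2, the ubiquitin ligase that Nutlin-3a displaces, went from 34330 to 13965 (-1.30, SE 0.05). TP53INP1 fell by 1.66 (SE 0.07). Among 12 genes of p53 and its regulators 9 fell and 3 rose. CDKN1A, the CDK inhibitor p21, went from 54185 to 62129 and rose by 0.20 (SE 0.04). Of 29 p53 targets in metabolism and other roles, 22 fell and 3 rose, with a median of -0.38. Of 15 in cell death, 9 fell and 4 rose, and of 9 in DNA repair, 6 fell and 1 rose. Of 12 in cell cycle arrest, 4 fell and 6 rose. Examples of falls were TP53I3 (-1.09), the caspase activator APAF1 (-1.14), the damage sensor XPC (-1.02) and the antiproliferative BTG2 (-1.14). Examples of rises were GDF15 (0.64) and GADD45A (0.49). MDM2 has 15.0% of its longest transcript in common with other genes.

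Set against the effect in DMSO, the p53 targets that differed did so in 1 direction in 3 of the 4 lists. The difference was below 0 for 12 of 12 arrest genes, for 26 of 29 in metabolism and other roles and for 10 of 15 in cell death. It was above 0 for none in these 3 lists. Beside this, it was below 0 for 10.3% of all genes and for 2722 of the 13103 averaging 100 or more. CDKN1A was at 5633 normalized counts in siControl and 23233 in siANKRA2 cells under DMSO, a rise of 2.04 there beside 0.20 in Nutlin-3a, which is a difference of -1.85. GDF15 differed by -1.71, LIF by -1.77, GADD45A by -1.57 and MDM2 by -1.19. These differences equal, gene by gene, the Nutlin-3a response of siANKRA2 cells less that of siControl cells. CDKN1A rose by 3.27 in siControl and by 1.42 in siANKRA2 cells on the log2 scale, and MDM2 by 3.38 and 2.19.

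Genes of DNA replication and of mitosis, both lowered when p53 arrests the cycle, parted after siANKRA2. Of 36 G2/M and mitosis genes, 31 fell (86.1%) and 3 rose, with a median of -0.74. Among all genes averaging 100 or more, 39.6% were called lower and 38.5% higher. The spindle protein HMMR went from 858 to 107 normalized counts (-3.0, SE 0.10), the mitotic kinase PLK1 from 1883 to 546 (-1.79, SE 0.06) and MYBL2, which drives late cell cycle genes, from 2814 to 597 (-2.24, SE 0.05). CKS1B rose by 1.29 (SE 0.10), although 21.0% of its longest transcript is found in other genes. Of 38 G1/S and DNA replication genes, 19 rose (50%) and 12 fell (31.6%), nearer to those shares, with a median of 0.14. The helicase subunit MCM2 went from 1903 to 4005 (1.07, SE 0.04), the clamp loader subunit RFC3 rose by 1.16 (SE 0.06) and the origin subunit ORC6 by 1.17 (SE 0.07). The polymerase POLE (-0.88, SE 0.07) and the ligase LIG1 (-0.87, SE 0.04) fell.

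In DMSO the replication genes were lower, 35 of 38 called lower and 1 higher, with a median of -0.62. Over all genes 24.5% were called lower and 24.3% higher there. The difference between treatments was above 0 for 38 of 38, with a median of 0.82. Beside this, it was above 0 for 9.44% of all genes and for 2542 of the 13103 averaging 100 or more. Homologous recombination and Fanconi genes had the same pattern, with a median of 0.16 in Nutlin-3a and -0.52 in DMSO, and 18 of 26 above 0. Of the 36 mitotic genes 35 were lower and 1 higher in DMSO, with a median of -1.02, and the difference was above 0 for 21 and below 0 for 3. The cell cycle regulators that follow are given in Nutlin-3a. The phosphatase CDC25A, which starts S phase, rose by 1.41 (SE 0.07) from 533 to 1418 normalized counts. The D-type cyclin CCND1 fell by 1.63 (SE 0.04), from 17159 to 5555. E2F1 rose by 0.38 (SE 0.08) and E2F2 fell by 0.66 (SE 0.13). CDKN3 (-1.81) and the pocket protein RBL2 (-1.37) fell.

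**Figure D3:**
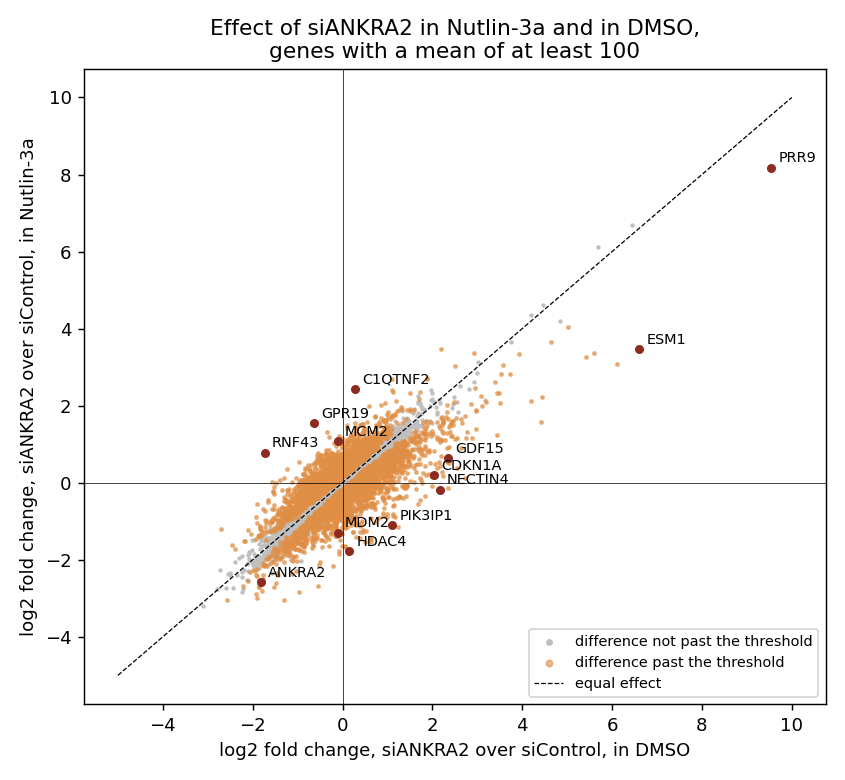
The siANKRA2-to-siControl log2 fold change under Nutlin-3a (vertical axis) against that in DMSO (horizontal axis) for the 13103 genes averaging 100 or more. Orange genes differ between the treatments by the normal test, the dashed line marks equal effects, and CDKN1A, GDF15 and NECTIN4 lie far below it while RNF43, GPR19 and MCM2 lie above it.

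Across genes, most of the siANKRA2 effect was shared by both treatments. Pearson's r between the effects in Nutlin-3a and DMSO was 0.80 over the 18456 genes averaging 10 or more, a description across genes, which are not independent replicates, of comparisons that share the siRNA and the fit. Of 10410 genes called in both, 9860 (94.7%) had the same direction, 4915 higher and 4945 lower. The remaining 550 had opposite directions, 260 of them higher in Nutlin-3a and 290 lower. A further 2956 genes were called in Nutlin-3a and not in DMSO, of which the difference passed for 1034.

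Growth signalling genes moved in both directions. Of 32 genes of the mTOR complexes and their regulators 14 rose and 11 fell, with a median of 0.04. Among the 30 averaging 100 or more 13 rose and 11 fell, which is near the 38.5% higher and 39.6% lower of all genes at such levels. The kinase MTOR went from 4028 to 1572 normalized counts (-1.36, SE 0.11), and the stress protein SESN3 from 1759 to 344 (-2.35, SE 0.14). The translation repressors EIF4EBP2 and EIF4EBP1 moved oppositely, at -1.15 (SE 0.05) and 0.75 (SE 0.05). RPTOR, the mTORC1 scaffold, rose by 0.57 (SE 0.07). Of 21 AKT and PI3K signalling genes 7 rose and 9 fell, also near that background. The regulatory subunits PIK3R1 and PIK3R3 fell by 1.17 and 1.08, the catalytic subunit PIK3CA rose by 0.73 and the AKT phosphatase PHLPP1 by 1.06. Of 14 FOXO factors and targets, all averaging 100 or more, 3 rose (21.4%) and 6 fell (42.9%), FOXO1 and FOXO3 being among those that rose (0.57 and 0.50).

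Hair and skin genes and cytokine genes were among the 10 largest rises. PRR9, a gene of the epidermal differentiation region, went from 4.01 to 1160 normalized counts, a log2 fold change of 8.18 (SE 0.43). The hair keratin-associated gene KRTAP3-1, at or under the floor of 3 normalized counts in siControl, was at least 12.4-fold higher. The chemokine CCL3 rose by 6.12 (SE 0.28), the lipase inhibitor G0S2 by 4.62 (SE 0.15), the tight junction protein CLDN1 by 4.37 (SE 0.11), the cytokine subunit IL23A by 4.21 (SE 0.18) and the chemokine CCL20 by 4.05 (SE 0.20). RGS4, the metalloproteinase MMP3 and the collagen cross-linking enzyme LOX rose by 3.66, 3.66 and 3.47. CCL3 has 21.5% of its longest transcript in common with other genes. Of 23 chemokines and cytokines with a row, among 31 listed, 12 rose and 5 fell, beside 24.6% of all genes higher and 25.5% lower. The list median of 1.84 was 1.41 with genes at the floor set to their bounds. CXCL8 rose by 2.61 (SE 0.18), while CSF1, LIF and CX3CL1 fell by 1.03, 1.24 and 1.14. Of 24 NF-κB pathway genes 12 rose and 6 fell, with TRAF1 at 2.07 and TNFAIP3 at 1.43 among the rises and its partner TNIP1 at -1.72 among the falls. Of the 28 epidermal and hair genes 10 were higher and 9 lower, with a median of 0.02. Of the 8 that averaged 100 or more 6 rose and 2 fell, with a median of 1.0. Among all genes at such levels 38.5% were higher and 39.6% lower. PRR9 and KRTAP3-1 are among the 8 although both stood far under 100 in siControl. The filter on the mean thus favours such rises, and the median of 1.0 partly follows from it. LCE1C, a cornified envelope gene, went from 512 to 55.5 (-3.20, SE 0.15), and KRTAP2-3 from 897 to 4219 (2.23, SE 0.12). LCE1C has 32.6% and KRTAP2-3 43.3% of its longest transcript in common with other genes.

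By the Wald score, which weighs size against error, the firmest rises were HMOX1, the heme-degrading oxygenase (2.46, Wald 52.8), from 2296 to 12604 normalized counts, and the autophagy gene GABARAPL1 (2.04, Wald 51.4). GARS, the glycyl-tRNA synthetase, DUSP1, a phosphatase of MAP kinases, the kinase SGK1, TXNRD1, PPIF and ESM1 followed with LOX and CLDN1. Among the 10 firmest falls was the ribosome biogenesis factor BMS1 (-1.96, Wald -47.9), which went from 6892 to 1771. CAST, the calpain inhibitor (-2.27), MYBL2, the magnesium transporter MAGT1 (-2.08), the chromatin remodeller ATRX (-2.41), TNIP1, ESYT1 (-1.50), ANXA1 (-1.70) and the neurofilament NEFL (-1.54) were also among them. BMS1 stood at -0.11 after siRFXANK in Nutlin-3a. Further genes of the largest falls were SYT12 (-2.88), POLR3GL (-2.84), SPTBN5 (-2.84), the transporter ABCC3 (-2.80) and SAPCD2 (-2.76).

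Metabolic lists leaned upwards, beside 38.5% higher and 39.6% lower among all genes averaging 100 or more. Of 31 cholesterol and fatty acid synthesis genes 23 rose and 5 fell, with a median of 0.62 beside 0.25 in DMSO. DHCR7, SQLE and SCD rose by 1.17, 1.13 and 1.12. Of 30 genes of the unfolded protein and amino acid response 22 rose and 5 fell. CHAC1 (1.63), PPP1R15A (1.62) and ATF3 (1.50) led the rises, all downstream of the kinase arm that acts through ATF4, whereas the chaperones HSP90B1 (-1.41) and HSPA5 (-0.24) and the sensor ATF6 (-0.87) fell. Of 34 lysosome and autophagy genes 22 rose and 8 fell, and of 35 glycolysis and hypoxia genes 24 rose and 8 fell, with HK2 at 1.88 and LDHA at -0.78. Of 84 cytosolic ribosomal protein genes 43 rose and 16 fell. These 5 lists had medians between 0.18 and 0.62. The lysosome list (0.28 in Nutlin-3a, 0.43 in DMSO) and the ribosomal list (0.18 and 0.35) had higher medians in DMSO. The unfolded protein list (0.51 and 0.46) and the glycolysis list (0.30 and 0.19) had lower ones there. Ribosomal protein genes have many near-identical pseudogene copies, so their values are uncertain.

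Primary cilium and interferon-stimulated genes leaned downwards. Over all genes 25.5% were called lower and 24.6% higher, and among those averaging 100 or more 39.6% and 38.5%. Of 40 cilium genes, a classical group of RFX targets, 27 fell and 5 rose, with a median of -0.48 in Nutlin-3a and -0.45 in DMSO. The intraflagellar transport gene IFT57 went from 923 to 157 normalized counts (-2.55, SE 0.08), and CEP290 and IFT81 fell by 1.60 and 1.51. Of 33 interferon-stimulated genes with a row 17 fell and 6 rose. OASL fell by 2.60 (SE 0.18), IFI44 by 1.62 and IFIT3 by 1.50, and ISG20 rose by 1.22. Of 465 genes named ZNF, 185 fell (39.8%) and 84 rose (18.1%). Among the 346 averaging 100 or more 161 fell and 72 rose, with a median of -0.18.

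**Figure D4:**
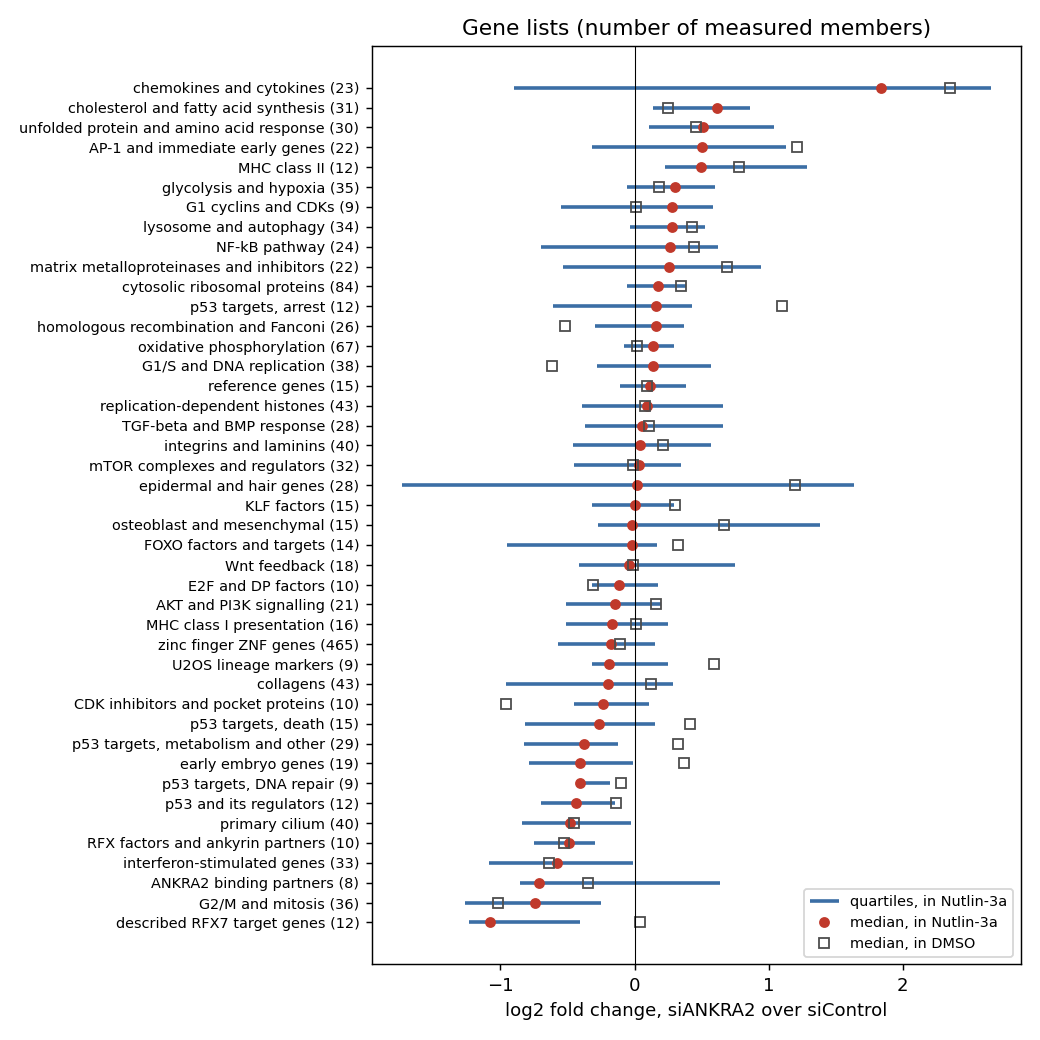
Median (red circle) and quartiles (blue line) of the siANKRA2-to-siControl log2 fold change under Nutlin-3a (horizontal axis) for each gene list with at least 8 measured members, with the median in DMSO as an open square. RFX7 targets (-1.08 and 0.04), replication genes (0.14 and -0.62) and p53 arrest genes (0.16 and 1.10) lie far from their DMSO medians.

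RFX factors bind a motif known as the X-box, and promoters from 250 bases before to 50 bases after the start (RefSeq, GRCh38.p14) were searched for it on both strands. The word GTTGCCATG, which contains the second word searched, GTTGCCA, is in 0.802% of all 27305 promoters. Among the 9221 genes that average 100 or more and have a promoter in the table, 54 held it. Of these 31 fell (57.4%) and 11 rose (20.4%), beside 40.8% and 38.3% of genes without it, and the medians were -0.31 and -0.02. In DMSO their median was -0.17, and after siRFXANK in Nutlin-3a -0.02. The shorter GTTGCCA, in 4.13% of all promoters, went with a median of -0.05 over 312 genes. None of the 12 RFX7 targets held either word in this window. The 5 genes with the lowest Wald scores among the 54 are shown because they hold the longer word, in capitals on either strand, and fell.
RTL6, chr22:44498344-44498372, minus strand, log2 fold change -0.93: ggtcggtatcCATGGCAACcagcggggcc
TSPYL4, chr6:116254109-116254137, minus strand, log2 fold change -0.91: gacatcaccaGTTGCCATGgtagcaccgc
DSE, chr6:116254109-116254137, plus strand, log2 fold change -0.77: gcggtgctacCATGGCAACtggtgatgtc
PHC2, chr1:33431221-33431249, minus strand, log2 fold change -0.55: ccacccgcccGTTGCCATGgccaccggtt
CCDC34, chr11:27363288-27363316, minus strand, log2 fold change -1.05: cacgcgtcgcCATGGCAACgcggggtctg

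TSPYL4 and DSE are divergent neighbours that share 1 occurrence, 52 bases before the start of each. TSPYL4 went from 992 to 526 normalized counts and DSE from 2049 to 1204. In RTL6 the word lies 129, in PHC2 144 and in CCDC34 91 bases before the start. The other motifs searched, with the Nutlin-3a medians of genes with and without them, were TTTCCCGC (0.01 with it and -0.02 without) and TTTGGCGC (0.12 and -0.02) for E2F, TTTGAA (-0.06 and -0.02) for the CHR element, TGANTCA (0.02 and -0.02) for AP-1, TGACGTCA (-0.02 and -0.02) for CREB and GGACTTTCC (0.07 and -0.02) for NF-κB. The 105 genes with TTTGGCGC had a median of -0.29 in DMSO, beside -0.02 without it, and of 0.16 after siRFXANK in Nutlin-3a. In DMSO the genes with TTTGAA had a median of -0.13 and those with TTTCCCGC of -0.10.

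A short word in the transcripts went with lower levels after siANKRA2. An siRNA guide can pair through a short seed near its 5′ end with transcripts other than its target, which is why transcripts were searched for words. Words of 7 bases held by at least 50 genes were ranked by the mean change of genes with the word, adjusted for length and base composition of the stretch and divided by its standard error. The lowest-ranked word in 3′ UTRs in DMSO was CAGAAGA, held by 1908 of 10597 genes. In Nutlin-3a it ranked second in 3′ UTRs, after AGAAGAA, which overlaps it by 6 bases, and second in coding stretches. Extending it by 1 base to the lowest DMSO median gave CAGAAGAA. The Nutlin-3a and DMSO comparisons share no library but share the siRNA, the word was chosen with values of both known, and the values below are a description with no test.

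Of 11318 protein-coding genes averaging 100 or more, 2680 (23.7%) held CAGAAGAA in the coding stretch or 3′ UTR of their transcript with the longest coding stretch (GENCODE 29). Their median log2 fold change was -0.26, with 55.6% called lower and 24.0% higher. The 8638 genes without it had a median of 0.05, with 36.1% lower and 43.1% higher. The median was -0.19 with 1 occurrence (2080 genes), -0.46 with 2 (470 genes) and -0.57 with 3 or more (130 genes), of which 72.3% were called lower. Median coding length also rose over these classes, from 1323 bases without the word to 1873.5, 2412 and 4924.5. Its part in the trend with the number of occurrences was not tested. After siRFXANK in Nutlin-3a, the same 4 classes, from none to 3 or more, had medians of 0.02, 0.03, 0.00 and 0.06. By quartile of transcript length, the median with the word lay between -0.30 and -0.15 and without it between -0.02 and 0.12. Words that differ in the last base had medians of -0.18 (CAGAAGAC), -0.15 (CAGAAGAG) and -0.16 (CAGAAGAT). Whether the siRNA pairs with this word was not tested, since the sequence of siANKRA2 is not given in the sources used here.

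**Figure D5:**
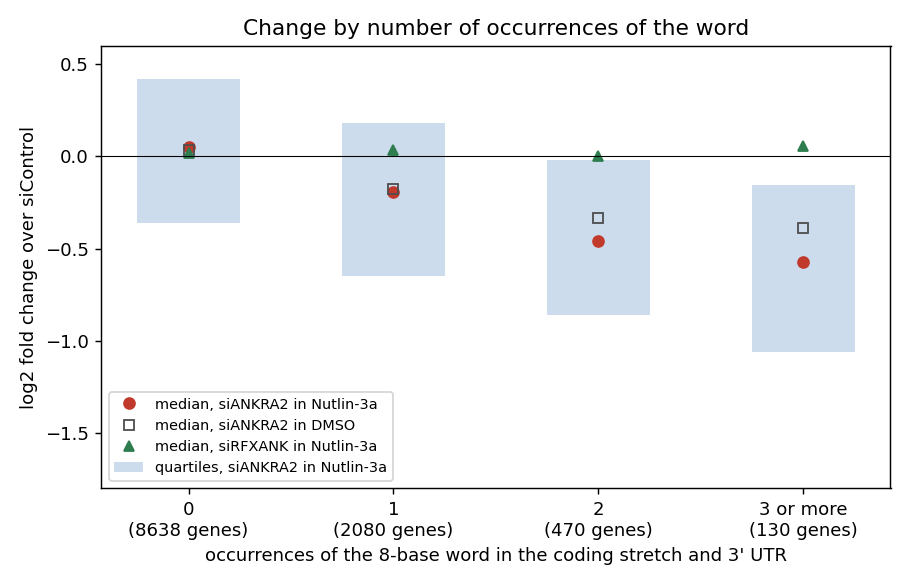
Median log2 fold change over siControl (vertical axis) for genes with 0, 1, 2 and 3 or more occurrences of the 8-base word (horizontal axis), for siANKRA2 in Nutlin-3a (red circles, with quartiles as bars), siANKRA2 in DMSO (open squares) and siRFXANK in Nutlin-3a (green triangles). The red medians run from 0.05 to -0.57, and the green ones stay between 0.00 and 0.06.

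The first occurrence of the word with a mapped window is shown for the target, for RFX7, and for the genes among the 10 lowest Wald scores or the 10 largest falls that hold it, CAST excepted. Each has 8 bases on each side, the word in capitals, on the transcript strand (GENCODE 29, GRCh38).
ANKRA2, exon 2, coding, chr5:73562748-73562771, minus strand: cccaaattCAGAAGAAgggtcagc
RFX7, exon 8, coding, chr15:56098239-56098262, minus strand: ggaaaatcCAGAAGAAgcagcaag
ATRX, exon 2, coding, chrX:77717172-77717195, minus strand: acactcatCAGAAGAAtctgaaga
BMS1, exon 2, coding, chr10:42784402-42784425, plus strand: ctaaggacCAGAAGAAacacagaa
MAGT1, exon 10, 3′ UTR, chrX:77826963-77826986, minus strand: agtagcctCAGAAGAAatatttta
ESYT1, exon 28, coding, chr12:56143103-56143126, plus strand: ggacctcaCAGAAGAAgaggaccc
SPTBN5, exon 16, coding, chr15:41879303-41879326, minus strand: agctggccCAGAAGAAgaccctgg
HMMR, exon 6, coding, chr5:163471195-163471218, plus strand: atggtaacCAGAAGAAtttgagaa

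ANKRA2 holds the word once, in its coding stretch of 939 bases, and RFX7 and ATRX hold it 3 times each. Of the 10 genes with the lowest Wald scores 5 held it (ATRX, BMS1, CAST, ESYT1 and MAGT1), and of the 10 with the highest 1 (SGK1). Of the 10 largest falls 8 are coding genes, and 2 of these held it (HMMR and SPTBN5). Of the 10 largest rises 1 held it (RGS4). The share over all coding genes averaging 100 or more was 23.7%, so the largest falls lay near it. RFX5 and MYBL2 did not hold it. Several lists were also described without genes that hold the word, among protein-coding genes averaging 100 or more. The 11 RFX7 targets without it had a median of -1.05 with 10 lower, the 27 mitotic genes without it a median of -0.55 with 24 lower, and the 30 cilium genes without it a median of -0.48 with 22 lower. The 7 genes of the list of p53 and its regulators without it had a median of -0.34 with 4 lower and 3 higher, beside -0.43 for the whole list. The 4 DNA repair targets without it had a median of -0.17 with 2 lower and 1 higher, beside -0.41, and the 10 in cell death -0.20 with 6 lower and 4 higher, beside -0.27. The 27 in metabolism and other roles had a median of -0.27 with 20 lower. The median was -0.38 for that whole list and -0.32 for its 28 members averaging 100 or more. The 10 in arrest had a median of 0.30 with 2 lower and 6 higher, beside 0.16. The difference between treatments was below 0 for all 11 RFX7 targets without the word and above 0 for all 32 replication genes without it. Genes without the word can still follow others that hold it, RFX7 among them, which was not tested.

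Other gene features moved less. Protein-coding genes in the lowest quartile of transcript length, up to 2504 bases, had a median of 0.12, with 47.3% higher and 32.0% lower, and those in the highest quartile, from 5653 bases, a median of -0.12, with 31.3% higher and 46.9% lower. By GC content the quartile medians lay between -0.06 and 0.04. Processed pseudogenes averaging 100 or more had a median of 0.12 over 1098 genes and lincRNAs of -0.18 over 190. The paraspeckle RNA NEAT1 went from 11496 to 2350 normalized counts (-2.29, SE 0.16). FBXL19-AS1 (-3.04), LINC01173 (-2.75) and IGFL2-AS1 (-2.20) also fell, and LINC01468 (3.38), AC004817.3 (3.09) and LINC02001 (2.32) rose. FBXL19-AS1 overlaps FBXL19 on the opposite strand.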

How the data were processed

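RNA-seq of U2OS cells was analysed from the tables the authors deposited. The submitters' processing notes credit the authors' processing to Trimmomatic 0.39, cutadapt 2.10, featureCounts 1.6.5, DESeq2 1.20.0 and hg38. The deposited columns hold only the authors' own comparisons: a mean normalized count per gene (a signal over all samples of the authors' fit), the authors' log2 fold change with a standard error, the Wald score they deposited, and the authors' p-value and Benjamini-Hochberg adjusted p-value. They are the authors' pooled values, with no count per library, so no count model was fitted here and no depth or interval is given. Strand use in counting is not given in the sources used here. Around the 4 siControl and siANKRA2 groups the fold changes of a gene summed to 0 within 1.4e-14 on the log2 scale.

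Computed here, with Python 3.11.15, NumPy 2.4.6 and SciPy 1.17.1, were recovered group means, the normal test of the difference between the effects in Nutlin-3a and in DMSO, list counts and medians, motif and word searches, and shared stretches of 31 bases. The recovery took the sampling variance of a group's log2 mean as (dispersion + 1/mean)/(3 ln2²), and means under 0.5 were set to 0.5. A mean of at most 3 was treated as a floor. Of 26702 gene IDs, 26659 (99.8%) matched GENCODE 29. Steps were tested on simulated data. Some named genes are not reported here. Members and lists were chosen with earlier results of these data known. Named genes are ANKRA2, the members of the first 3 lists described, the 10 largest rises and falls and the 10 highest and lowest Wald scores among called genes with a mean of at least 100, up to 3 rises and falls per other list and the members a list is named for, the 8 largest and 8 smallest differences, and 5 lncRNAs in each direction. UTP15, the word search, the motif windows shown and the lists of the closing section were added after the data were seen. Alternatives were a threshold of 0.01, a minimum change of 1, minimum means of 10 and 100, centring on the median and protein-coding genes only.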

Additional observations from a re-analysis of the deposited data

Results flagged for a closer look

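The effect of siANKRA2 differed between Nutlin-3a and DMSO for 5276 genes (normal test of the difference of the deposited log2 fold changes, Benjamini-Hochberg adjusted over 26702 genes). The extreme genes averaging 100 or more are given as the effect in Nutlin-3a minus that in DMSO on the log2 scale. Above 0 were the Wnt receptor ligase RNF43 (2.51, from -1.74 in DMSO to 0.78 in Nutlin-3a), GPR19 (2.18), C1QTNF2 (2.17), the channel TRPA1 (1.65), C4orf19 (1.59), the transcription factor SOX2 (1.59), the cytokine signalling inhibitor SOCS1 (1.57) and the MAX partner MXD3 (1.50). RNF43 has 76.4% and MXD3 39.9% of its longest transcript in common with other genes, so both are uncertain.

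Below 0 were the endothelial proteoglycan ESM1 (-3.14, from 6.60 in DMSO to 3.46), the lncRNA AC004817.3 (-3.02), the protease inhibitor SPINK6 (-2.85), the epidermal factor GRHL3 (-2.60), the bone phosphatase ALPL (-2.49), SUGCT (-2.39), the adhesion protein NECTIN4 (-2.35) and coagulation factor F5 (-2.22). For SPINK6 the siControl group in DMSO was at or under the floor of 3 normalized counts, so its value depends on the fit. SUGCT and F5 rose in DMSO (1.23 and 1.68) and fell in Nutlin-3a (-1.16 and -0.54).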

How the results depend on the processing

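No paired analysis was possible because each deposited table gives a comparison between groups rather than values of single libraries. Leaving out a replicate, another count model and a filter on raw counts could not be run either, and the influence of 1 library is unknown. Adding a minimum size of 1 on the log2 scale left, by its own construction, 3883 called genes, 1628 higher and 2255 lower, and 811 genes for the difference between treatments, 275 above and 536 below 0. The calls stayed within 1.5 times, in each direction too, under a threshold of 0.01, minimum means of 10 and 100, centring on the median and protein-coding genes only. The difference between treatments did so under a threshold of 0.01, a minimum mean of 100 and centring, the settings run for it. Pearson's r of 0.80 became 0.84 for genes averaging 100 or more, and Spearman's rho was 0.79. Centring changed no direction or call of the 301 named genes. Of 89 list medians under centring or a minimum mean of 100, 81 moved by less than the median standard error of the list's genes.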

Other observations

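Lists put together after the values were seen describe further groups, with no test. Beside their counts, 24.6% of all genes were called higher and 25.5% lower, and 38.5% and 39.6% of genes averaging 100 or more. Of 20 genes known as targets of the oxidative stress factor NRF2, 14 rose and 3 fell, with a median of 0.55 beside 0.31 in DMSO. HMOX1 (2.46), TXNRD1 (1.88) and the ferritin light chain FTL (1.02) rose, whereas NQO1 fell by 0.87, so the classical NRF2 marker NQO1 went the other way. Of 20 aminoacyl-tRNA synthetases 10 rose and 8 fell, with GARS at 1.16 and IARS at -0.72. Of 16 heat shock and chaperone genes 10 rose and 4 fell. The inducible HSPA1A went from 1706 to 3979 normalized counts (1.22, SE 0.05), while its cofactor DNAJB1 fell by 0.47. HSPA1A and HSPA1B are near-identical copies. Of 13 genes of the mitochondrial genome, all averaging 100 or more, 5 rose (38.5%, as over all genes at such levels) and none fell, with a median of 0.08.

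Collagens and matrix genes moved in both directions. Beside the counts in this paragraph too, 24.6% of all genes were called higher and 25.5% lower, and 38.5% and 39.6% of those averaging 100 or more. Of 43 collagen genes 15 fell and 9 rose, with COL4A5 (-2.11) and COL6A3 (-1.65) among the falls and COL8A1 (3.03) and COL5A2 (1.91) among the rises. The laminin chain LAMB3 rose by 1.28 and LAMA3 fell by 1.64. The growth factors BMP2 and BMP6 rose by 2.01 and 1.90 and CTGF by 1.54. Of 22 AP-1 and immediate early genes 13 rose and 7 fell, NR4A2 by 2.73 upwards and JUND by 1.12 downwards. Of 19 early embryo genes with a row, a group that the factor DUX4 switches on, 8 fell and 2 rose. ZSCAN4 went from 837 to 389 normalized counts (-1.11, SE 0.10) and H3.Y from 3524 to 1636 (-1.11, SE 0.08), while RFPL4A rose by 0.66. Of 15 reference genes 8 rose and 5 fell, and the transferrin receptor TFRC rose by 1.71.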
